A study of Mus musculus with 2 samples.

Results

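The genes examined here encode the subunits of potassium channels, and were taken as every symbol that begins with Kcn followed by letters and a digit. Of 19059 genes in the files, 92 had such a symbol, and the 82 of them with 20 or more unique molecular identifiers (UMIs, tags that mark single captured molecules) in some cell class of either library, both libraries summed, are described. Of these, 68 belong to families that form the pore and 14 to accessory families that modify it. The 10 left out were Kcna7, Kcna10, Kcne1, Kcnj1, Kcnj15, Kcnk15, Kcnk16, Kcnk18, Kcnmb3 and Kcnv2. Just inside the limit lay Kcne3 with 22 UMIs in its best class, Kcnk7 with 26 and Kcnn4 with 75, and just outside lay Kcnk15 with 10, Kcna10 with 9 and Kcnj15 with 7.

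The data were single-cell RNA-seq of hippocampus from aged C57BL/6 mice. The mice, of both sexes, were 21 months old at assignment and ate standard chow (control) or chow with 0.05% tomatidine for 3 months. Tomatidine is a steroidal alkaloid of tomato plants that was under test as a senotherapeutic, a compound that acts on senescent cells. Hippocampi of 4 mice were pooled in each group, which gave 1 control library (15912 cells, 279525565 UMIs) and 1 tomatidine library (15185 cells, 259059908 UMIs). In this assay cells are fixed and pairs of probes bound to each transcript are counted. With 1 library in each group no test between the groups was possible. A difference between the libraries cannot be told apart from a difference in dissection, in the pooled mice or in library making, and the intervals given here (exact, 95%) cover counting error only.

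Levels are CPM, UMIs of the gene per 1000000 UMIs of the class in that library, and pairs of values are given in the order control, then tomatidine. Probes differ in number and efficiency between genes, so a gene is compared between classes and libraries, and genes are not compared with each other. Clusters were named from markers, 18 classes were named, and 17 with at least 30 cells in each library were ranked. Names are rebuilt ones and every class is to be read as "X-like". Unnamed clusters held 18.1% of control and 25.4% of tomatidine cells, and 292 cell barcodes occurred in both libraries. The libraries differed in content: the choroid plexus-like class held 338 and 34 cells, and an unnamed neuron cluster led by the transcription factor genes Pou4f2 and Barhl2 held 205 and 684 cells. Ttr, the main choroid plexus transcript, reached 109 to 2075 CPM in the other ranked classes of the control library and 6.46 to 447 CPM in those of the tomatidine library. The astrocyte-like class carried excitatory neuron markers (summed 4564 and 4550.2 CPM, against 7676 and 7427 CPM in dentate granule-like cells), so a neuronal channel gene in that class was not assigned to astrocytes. The endothelial-like class likewise held mural cell markers (10110.0 and 8229 CPM, against 17168 and 20336 CPM in mural-like cells).

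Potassium channels let potassium leave the cell along its gradient and so set the resting potential, shape the action potential and limit firing. Voltage-gated (Kv) channels open on depolarization, calcium- and sodium-activated channels couple the cell's ion load to its excitability, inward rectifiers (Kir) and two-pore channels carry resting and leak currents, and accessory subunits change gating and surface expression. In brain, Kv channels are best known in neurons, while astrocytes, oligodendrocytes, vessels and the choroid plexus use mainly Kir and leak channels to take up and move potassium.

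The pore-forming members share a signature in their coding sequence, the codons of the selectivity filter through which potassium passes, and the accessory members do not. A match was 15 bases in frame that code for threonine or serine, any residue, glycine, tyrosine or phenylalanine, and glycine. Threonine alone was planned for the first place, and serine was allowed as well. Kcnh8 below, and also Kcnh1, Kcnh2, Kcnh3, Kcnh4, Kcnh6, Kcnh7, Kcnj14, Kcnn1 and Kcnn3, match through serine. In the coding strand of GENCODE's mm10 transcripts, this wider pattern was found in 68 of 68 pore-forming and 0 of 14 accessory members. Of 18919 genes of the files with a coding sequence, 2.83% held it. Among the 10 two-pore members, whose channels carry a filter in each pore domain, 7 held a second match. The windows below show the filter codons in capitals for 7 members on which results turn, as reference sequence and not as a measurement.
Kcnj13: caacttACAATTGGTTATGGTaccatgttt
Kcnj10: cagaccACCATCGGCTATGGCttccgctac
Kcnj8: caagtgACCATTGGGTTTGGAgggagaatg
Kcna6: atgaccACGGTAGGTTATGGGgacatgtac
Kcnc1: atgacgACACTGGGCTATGGAgacatgtat
Kcnt1: ttctcaACTGTGGGCTTCGGTgatgtgacg
Kcnh8: ctcacaAGCGTTGGGTTTGGGaatgtgtct
The first 5 of these lie in coding exons at chr1:87389012-87389041 (minus strand, exon 2), chr1:172369296-172369325 (plus strand, exon 2), chr6:142566439-142566468 (minus strand, exon 3), chr6:126738638-126738667 (minus strand, exon 1) and chr7:46427967-46427996 (plus strand, exon 2). The windows of Kcnt1 and Kcnh8 lie at chr2:25894361-25894390 (plus strand, exon 11) and chr17:52877985-52878014 (plus strand, exon 8). The windows of the 3 inward rectifiers shown differed from each other. Where the assay's probes bind was not in the files used here, so reads of near-identical stretches of paralogs were not checked.

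Most members had a highest class that was the same in both libraries. That held for 70 of 82 members, 47 of them in a neuron class and 23 in another class, and for 45 of 82 the interval of the highest class lay above that of the next class in both libraries. Pvalb interneuron-like and dentate granule-like cells were the highest class of 10 members each, subcortical neuron-like cells of 6, and CA1-like, CGE interneuron-like and retrohippocampal or cortical neuron-like cells of 5 each. Oligodendrocyte-like, CA3-like, choroid plexus-like and oligodendrocyte precursor-like cells were highest for 4 members each. No member was highest in endothelial-like cells of both libraries. The 12 members whose highest class differed between the libraries (among them Kcna4, Kcna5, Kcnab2, Kcnc4, Kcne3, Kcnh2, Kcnh6, Kcnk7, Kcnq1, Kcns1 and Kcnu1) had close levels in their leading classes or few UMIs.

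**Figure D1:**
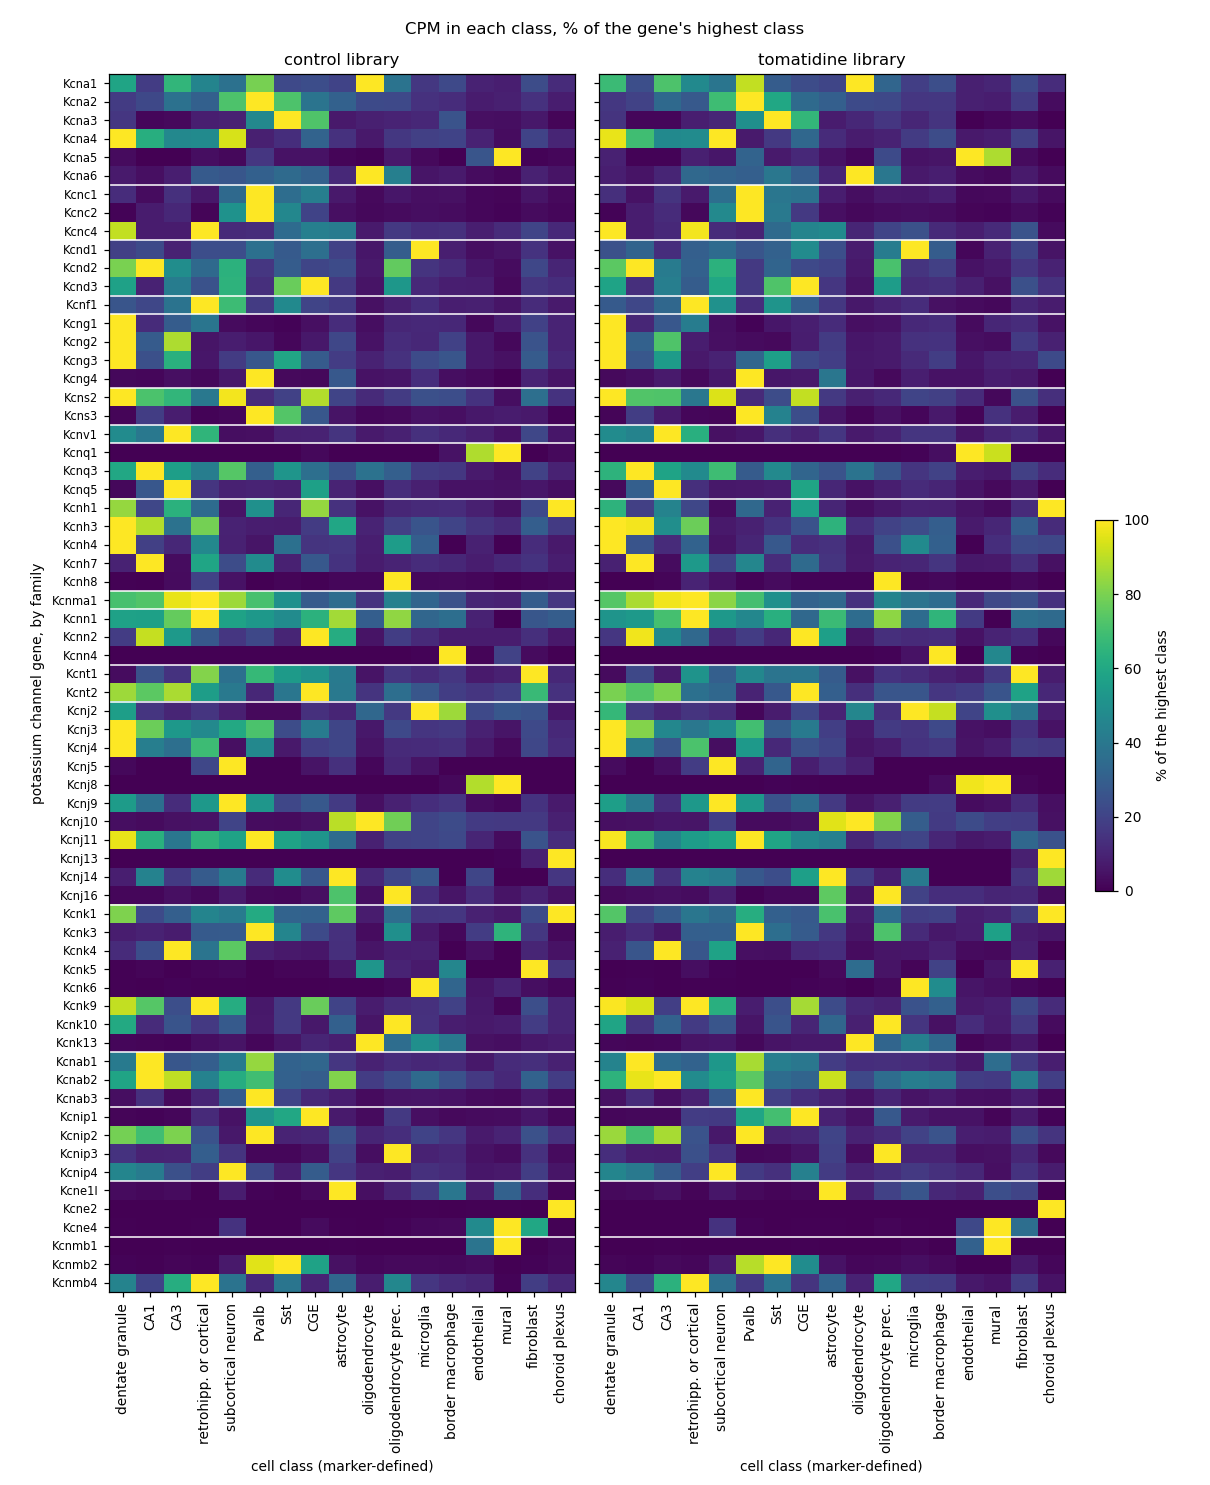
Level of 66 potassium channel genes given with values in the text (rows, by family) in 17 marker-defined classes (columns) of the control library (left) and the tomatidine library (right), as a percent of the gene's highest class in that library. The highest class of 61 of these genes is the same in both panels, and the choroid plexus column is the highest for Kcne2, Kcnh1, Kcnj13 and Kcnk1.

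Kv1 genes (Kcna), which encode low-threshold channels of axons, were high in oligodendrocyte-like cells and in interneurons. Kcna6 was highest in oligodendrocyte-like cells, at 952 CPM (938 to 966) in the control library and 869.5 CPM (854 to 885) in the tomatidine library, which was at least 2.31-fold its next class in each library. Kcna1, the most counted Kv1 gene, stood at 488 and 423 CPM (9150 and 5948 UMIs) in oligodendrocyte-like, 388 and 385 CPM in Pvalb interneuron-like and 285 and 288 CPM in dentate granule-like cells, so its lead in oligodendrocyte-like cells was narrow. Kcna2, a main axonal Kv1 subunit, was highest in Pvalb interneuron-like cells (528 and 604 CPM (1797 and 1591 UMIs)) and lowest or nearly so in endothelial-like and choroid plexus-like cells. Kcna3, which encodes Kv1.3, known also from immune cells, was highest in Sst interneuron-like cells (75 and 77.1 CPM (229 and 179 UMIs)) and followed by CGE interneuron-like cells (54.3 and 51.1 CPM), while border macrophage-like cells held 19.2 and 11.7 CPM (13 and 7 UMIs). Kcna4, an inactivating Kv1 subunit, had close levels in dentate granule-like (175 and 161 CPM) and subcortical neuron-like cells (165 and 166 CPM). Kcna5, a Kv1 channel of vessel walls, had its highest levels in mural-like (71.2 and 26.1 CPM (26 and 18 UMIs)) and endothelial-like cells (18.7 and 29.7 CPM (19 and 34 UMIs)), although most of its UMIs lay in other classes, for example 103 and 94 UMIs in dentate granule-like and 38 and 25 UMIs in Pvalb interneuron-like cells (2.18 and 2.7 CPM and 11.2 and 9.49 CPM).

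Of the Kv3 genes (Kcnc), which allow fast spiking, Kcnc1 and Kcnc2 followed the interneurons and Kcnc4 did not. Kcnc1 in Pvalb interneuron-like cells was 948 CPM (916 to 982) in the control library and 1006 CPM (968 to 1045) in the tomatidine library, at least 2.34-fold the next class. Kcnc2 was also highest there (1547 and 1649 CPM (5268 and 4343 UMIs)) and lowest in dentate granule-like cells (12.6 and 14.6 CPM), a gap of more than 100-fold in each library. Kcnc4 was shared by retrohippocampal or cortical neuron-like (247 and 236 CPM) and dentate granule-like cells (224 and 240.3 CPM). Summed over the family, Pvalb interneuron-like cells held 3231 and 3442 CPM and subcortical neuron-like cells, the next class, 1467 and 1457 CPM.

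The Kv4 genes (Kcnd), which carry A-type currents, each had another leading class. Kcnd2, the dendritic A-type channel of pyramidal neurons, was highest in CA1-like cells (312 and 351 CPM (5977 and 4649 UMIs)), 1.25-fold or more above dentate granule-like cells (249 and 262 CPM). Kcnd3, the A-type channel of many interneurons, was highest in CGE interneuron-like cells (210.1 and 233 CPM (658 and 675 UMIs)) and next in Sst interneuron-like cells (162 and 169 CPM). Kcnd1 departed from the rest of its family, with its highest level in microglia-like cells (51.9 and 45.8 CPM (162 and 122 UMIs)), at least 2.07-fold the next class, which was an interneuron class in both libraries.

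The silent Kv subunits, which form no channel alone and modify Kv2 channels, led in excitatory classes or in Pvalb interneurons. Kcng1 in dentate granule-like cells was 144 CPM (141 to 148) in the control library and 146 CPM (142 to 150.0) in the tomatidine library, at least 2.38-fold the next class, and Kcng3 was highest there as well (61.6 and 73.5 CPM (2902 and 2560 UMIs)). Kcnf1 was highest in retrohippocampal or cortical neuron-like cells (246 and 253 CPM (3814 and 3520 UMIs)) and Kcnv1 in CA3-like cells (165 and 152 CPM (1251 and 1012 UMIs)). Kcng4 was highest in Pvalb interneuron-like cells, with 41.4 and 35.7 CPM (141 and 94 UMIs) against 11.4 and 14.1 CPM in the next class, and so was Kcns3, with 108 and 123 CPM (366 and 324 UMIs) against 78.6 and 54.7 CPM in Sst interneuron-like cells. Kcns2, the most counted Kcns gene, was nearly level across dentate granule-like (74.8 and 70.7 CPM), subcortical neuron-like (73.5 and 66.9 CPM) and CGE interneuron-like cells (66.1 and 64.3 CPM).

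Among the Kcnq genes, whose products carry the muscarine-sensitive M-current that restrains repetitive firing, Kcnq3 and Kcnq5 were highest in pyramidal classes. Kcnq5 in CA3-like cells was 245 CPM (233 to 256) in the control library and 242 CPM (230.1 to 254) in the tomatidine library, and CGE interneuron-like cells came next at 139 and 141 CPM, while dentate granule-like cells held 5.6 and 6.51 CPM. Kcnq3 was highest in CA1-like cells (346 and 329.9 CPM (6623 and 4371 UMIs)). Within the named classes, Kcnq1, the epithelial and cardiac member, was found almost only in endothelial-like (26.6 and 47.2 CPM (27 and 54 UMIs)) and mural-like cells (30.1 and 43.5 CPM (11 and 30 UMIs)). The named classes held 134 UMIs of Kcnq1 over both libraries, beside 81 and 125 UMIs over all cells, so unnamed cells held it too. Because the endothelial-like class held mural markers, its share of Kcnq1 was not assigned to endothelial cells.

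The eag, erg and elk genes (Kcnh) led in neuronal, glial and choroid plexus classes. Kcnh7 was highest in CA1-like cells (189 and 215 CPM (3615 and 2851 UMIs)) and near the bottom in CA3-like cells (6.61 and 6.92 CPM), both of them pyramidal classes. Kcnh3, the most counted Kcnh gene in the named classes, was high in dentate granule-like (137 and 135 CPM) and CA1-like cells (121 and 133 CPM), and Kcnh4 was highest in dentate granule-like cells (10.6 and 11 CPM (502 and 382 UMIs)). Kcnh8 was highest in oligodendrocyte precursor-like cells (55.2 and 75.2 CPM (169 and 168 UMIs)), at least 5.03-fold above the next class, and stood at 0.906 and 0.641 CPM in oligodendrocyte-like cells. Kcnh1 was highest in choroid plexus-like cells (187 and 256 CPM (501 and 109 UMIs)), with dentate granule-like cells next in the tomatidine library (157 and 166 CPM).

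Among calcium- and sodium-activated channels, Kcnma1, the pore of the large-conductance BK channel, was found in every neuron class, from 462 and 451 CPM in retrohippocampal or cortical neuron-like down to 130.0 and 142 CPM in CGE interneuron-like cells. Kcnmb4, the neuronal β4 subunit of BK channels, was highest in retrohippocampal or cortical neuron-like cells (243 and 234 CPM (3768 and 3249 UMIs)), Kcnmb2 was nearly level in Sst (134 and 126 CPM (409 and 293 UMIs)) and Pvalb interneuron-like cells (128 and 113 CPM (435 and 297 UMIs)), and Kcnmb1, the smooth muscle subunit, had its highest ranked class in mural-like cells (41.1 and 56.5 CPM (15 and 39 UMIs)). The ependymal-like class, left out of the ranking with its 34 and 14 cells, held more of Kcnmb1 (181 and 209.9 CPM (94 and 49 UMIs)). Of the small-conductance genes, Kcnn2 was highest in CGE interneuron-like (291 and 332 CPM (912 and 962 UMIs)) and CA1-like cells (266 and 325 CPM), and Kcnn1 in retrohippocampal or cortical neuron-like cells (20.4 and 20.5 CPM (316 and 285 UMIs)). Kcnn4, the intermediate-conductance channel of immune and blood cells, was highest in border macrophage-like cells (69.4 and 46.9 CPM (47 and 28 UMIs)) and nearly missing from microglia-like cells (0.64 and 2.25 CPM (2 and 6 UMIs)). Kcnt1, a sodium-activated channel, was highest in fibroblast-like cells, at 122 CPM (104 to 141) in the control library and 219 CPM (200.3 to 238) in the tomatidine library, above retrohippocampal or cortical neuron-like cells (99.3 and 112 CPM). Kcnt2, the more counted sodium-activated gene in the named classes, was highest in CGE interneuron-like cells (88.8 and 106 CPM (278 and 307 UMIs)), and Kcnu1, the sperm channel, stayed below 10 CPM in every ranked class.

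The inward rectifiers (Kcnj) fell into neuronal, glial, vascular and epithelial members. Kcnj3, a G protein-gated (GIRK) subunit and the most counted Kcnj gene, was highest in dentate granule-like cells (443 and 435 CPM (20872 and 15162 UMIs)), whereas the GIRK subunits Kcnj9 (315 and 346 CPM (4427 and 3011 UMIs)) and Kcnj5 (6.05 and 4.02 CPM (85 and 35 UMIs)) were highest in subcortical neuron-like cells. Kcnj10, the main astrocytic Kir channel for potassium buffering, stood at 562 and 543 CPM (10550 and 7629 UMIs) in oligodendrocyte-like, 504 and 518 CPM in astrocyte-like and 441 and 443 CPM in oligodendrocyte precursor-like cells. Its partner Kcnj16 had another order, with 156 and 167 CPM (479 and 372 UMIs) in oligodendrocyte precursor-like, 113 and 125 CPM (1337 and 1755 UMIs) in astrocyte-like and only 5.92 and 9.04 CPM in oligodendrocyte-like cells. Kcnj10 was therefore close to level across the 3 glial classes, and Kcnj16 was not. The unranked ependymal-like class held 480 and 621 CPM of Kcnj10 (249 and 145 UMIs) and 154 and 163 CPM of Kcnj16 (80 and 38 UMIs). Kcnj14, a strong inward rectifier, had its highest but low level in astrocyte-like cells (4.72 and 5.49 CPM (56 and 77 UMIs)), and Kcnj2, the classical strong inward rectifier, in microglia-like cells (111 and 90.1 CPM (346 and 240 UMIs)) just above border macrophage-like cells (94.5 and 82.1 CPM).

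Both pores of ATP-sensitive channels were measured. Kcnj8, the vascular pore, was found in mural-like (132 and 103 CPM (48 and 71 UMIs)) and endothelial-like cells (116 and 101 CPM (118 and 115 UMIs)) and reached at most 3.35 CPM in any other ranked class. Because the endothelial-like class held mural markers, its share of Kcnj8 was not assigned to endothelial cells. Kcnj11, the neuronal pore, was nearly level in Pvalb interneuron-like (93.4 and 93.8 CPM) and dentate granule-like cells (90.2 and 92.9 CPM). Abcc9, the vascular sulfonylurea receptor that pairs with Kcnj8, was high in the same classes as Kcnj8, with 627 and 361 CPM in mural-like and 581 and 379 CPM in endothelial-like cells.

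Kcnj13, which encodes Kir7.1 of transporting epithelia, and Kcne2, an accessory subunit of epithelial channels, were both highest in choroid plexus-like cells but parted in fibroblast-like cells. Kcnj13 in choroid plexus-like cells was 991 CPM (954 to 1029.6) in the control library and 1289 CPM (1184 to 1402) in the tomatidine library, at least 11.2-fold the next class. Kcne2 there was 414 and 447 CPM (1107 and 190 UMIs). Fibroblast-like cells held 128 and 277 UMIs of Kcnj13 (87.5 and 115 CPM) but 1 and 1 UMIs of Kcne2. For each UMI of Kcne2 there were 2.40 and 2.88 of Kcnj13 in choroid plexus-like cells, and 128 and 277 in fibroblast-like cells. In the other 15 ranked classes together, Kcnj13 had 175 and 58 UMIs and Kcne2 92 and 28. The median level of Ttr in the ranked classes other than choroid plexus was 489 and 55.4 CPM. Whether choroid plexus RNA took part in the UMIs of those 15 classes was not tested.

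**Figure D2:**
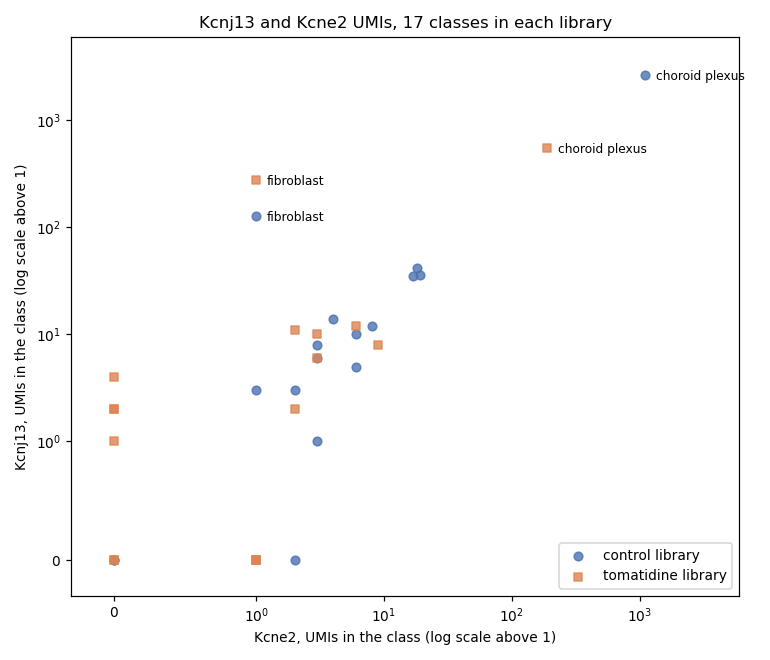
UMIs of Kcne2 (x axis) and Kcnj13 (y axis) in each of 17 classes, as circles for the control library and squares for the tomatidine library, on axes that are logarithmic above 1. The choroid plexus points lie at 1107 and 190 UMIs of Kcne2, and the fibroblast points stand apart at 1 UMI of Kcne2 with 128 and 277 of Kcnj13.

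Two-pore (Kcnk) genes, whose products carry leak currents, included members that were highest in microglia-like and in oligodendrocyte-like cells. Kcnk6 (TWIK-2) in microglia-like cells was 205 CPM (189 to 221) in the control library and 172 CPM (157 to 188) in the tomatidine library, at least 2.05-fold above border macrophage-like cells (66.4 and 83.7 CPM). Kcnk13 (THIK-1), best known as a microglial channel, stood at 74.3 and 63.1 CPM (232 and 168 UMIs) in microglia-like cells and was higher in oligodendrocyte-like cells (149 and 146 CPM (2789 and 2049 UMIs)), at least 2.00-fold above the next class. Kcnk10 (TREK-2) was highest in oligodendrocyte precursor-like cells (72.5 and 75.7 CPM (222 and 169 UMIs)), Kcnk4 (TRAAK) in CA3-like cells (46.7 and 56.7 CPM (353 and 377 UMIs)) and Kcnk5 (TASK-2) in fibroblast-like cells (22.6 and 25.3 CPM (33 and 61 UMIs)). Kcnk1 (TWIK-1), the most counted two-pore gene in the named classes, was at similar levels in choroid plexus-like (359.9 and 381 CPM), dentate granule-like (290.2 and 279.9 CPM) and astrocyte-like cells (270.4 and 272 CPM).

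Accessory subunits also had preferred classes. Kcnab3, a Kvβ subunit, was 325 CPM (307 to 345) in the control library and 354 CPM (331 to 377) in the tomatidine library in Pvalb interneuron-like cells, at least 3.42-fold the next class, while Kcnab2, the most counted Kvβ gene, was broad, with 923 and 798 CPM in CA1-like, 833 and 825 CPM in CA3-like and 748 and 758 CPM in astrocyte-like cells. The Kcnip genes encode calcium sensors of Kv4 channels, and each of the 4 led in another class. Kcnip1 was highest in CGE interneuron-like (313 and 244 CPM (980 and 706 UMIs)), Kcnip2 in Pvalb interneuron-like (334 and 327 CPM), Kcnip3 in oligodendrocyte precursor-like (497 and 545 CPM (1523 and 1216 UMIs)) and Kcnip4 in subcortical neuron-like cells (287 and 278 CPM (4024 and 2422 UMIs)). Kcnip3, also known as the transcriptional repressor DREAM, was at least 3.34-fold above its next class. Among small Kcne subunits, Kcne1l was highest in astrocyte-like cells (26.3 and 30.1 CPM (312 and 422 UMIs)) and Kcne4 in mural-like cells (57.5 and 68.1 CPM (21 and 47 UMIs)).

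**Figure D3:**
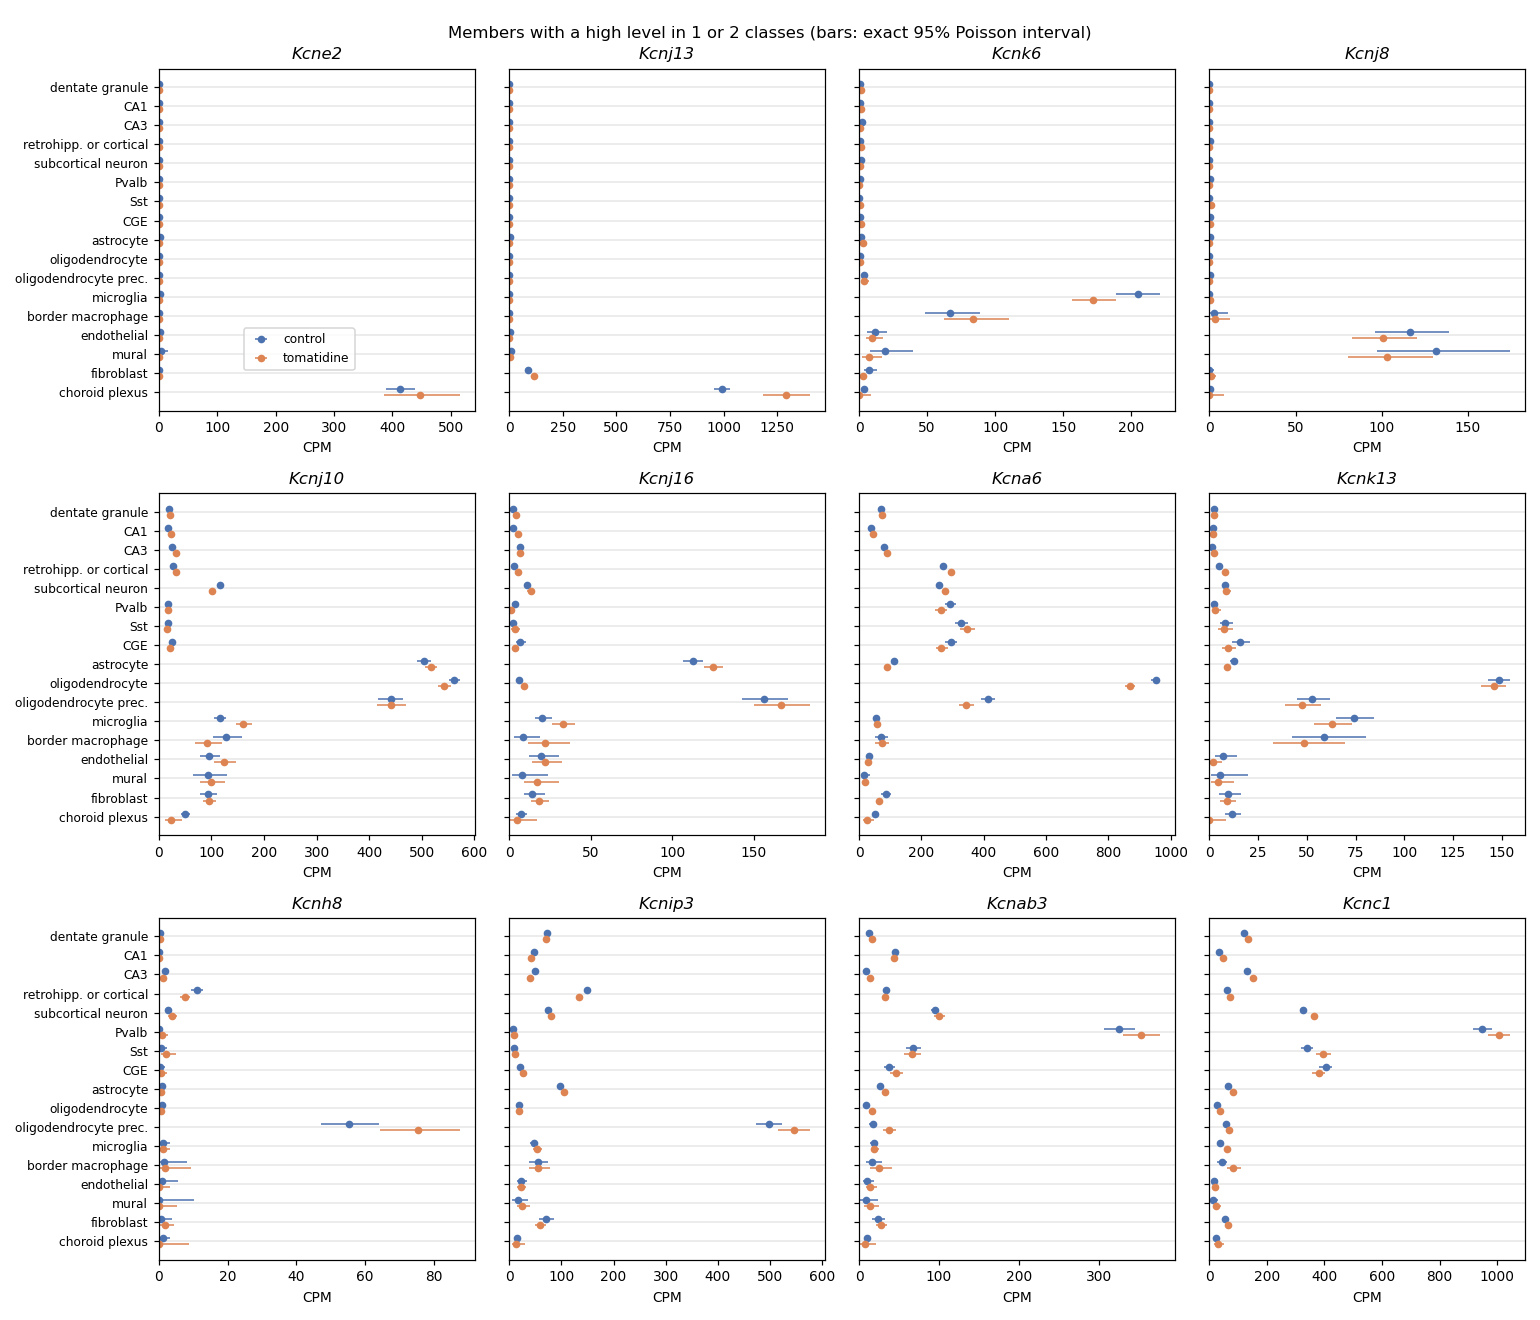
CPM of members with a high level in 1 or 2 classes, for 17 classes in the control and the tomatidine library, with exact 95% Poisson intervals as bars. The class with the highest level is the same in both libraries for each gene shown, and the intervals are widest in the classes with few cells.

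The comparison of tomatidine with control asked which channel genes differ between the groups within a class. It was made for the 734 combinations of member and class with 100 or more UMIs over both libraries. The level was at least 1.5-fold higher with tomatidine in 35 of them (4.77%), beside 2.07% of all 148292 gene and class combinations, and at least 1.5-fold lower in 12 (1.63%), beside 1.53%. The 35 higher values came from 19 genes, and 16 of them from Kcnt1, Kcnj16, Kcnab3 and Kcnk9 alone. With cells weighted equally the share was 5.72%, beside 4.45%. In 443 of 734 combinations the ratio was above 1 and in 291 below. Among all genes the share above 1 ran from 43.4% in choroid plexus-like to 62.0% in oligodendrocyte-like cells. It was 60.3% in dentate granule-like cells, so the split was not read as a result about the members. The sum over all members differed little in neurons and glia, for example 7666 and 7839 CPM in dentate granule-like and 4732 and 4824 CPM in astrocyte-like cells. Most combinations therefore lay within 1.5-fold between the libraries.

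**Figure D4:**
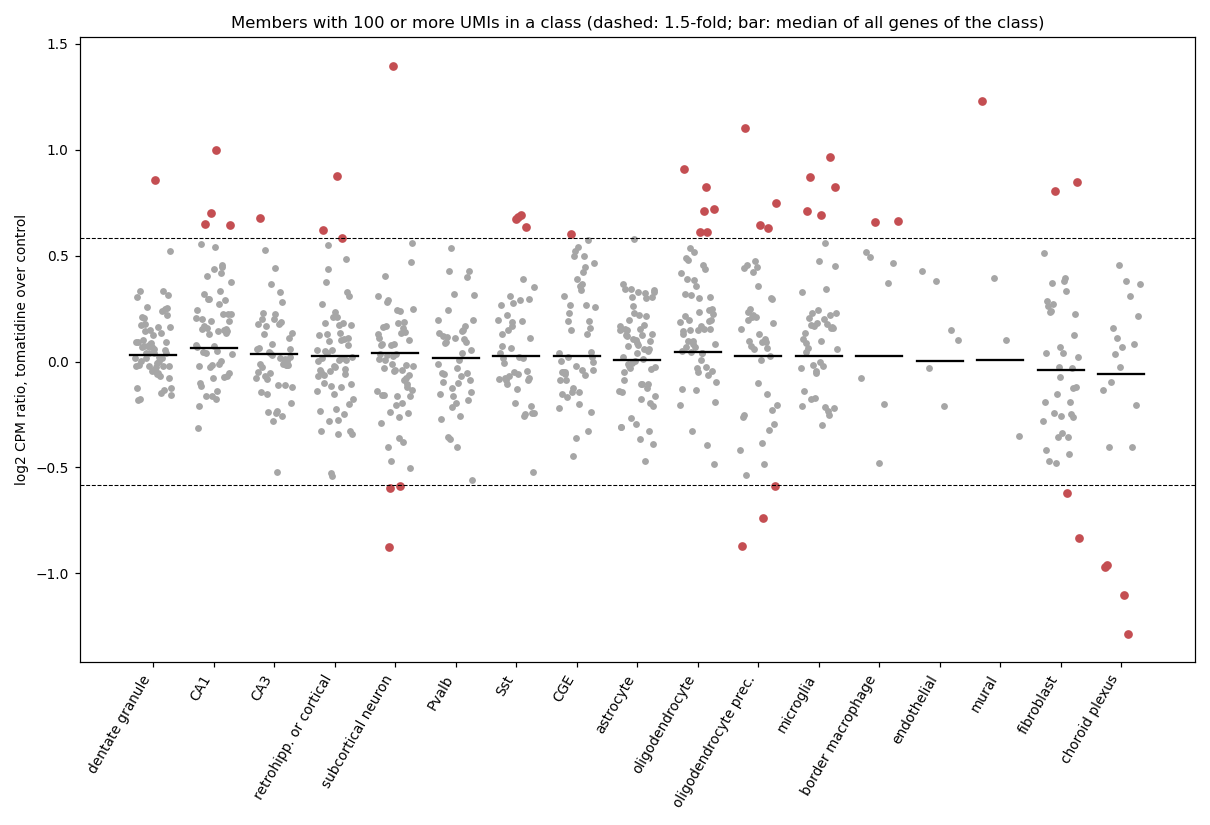
Log2 CPM ratio of tomatidine over control (y axis) for each member with 100 or more UMIs in a class (points), by class (x axis), with the 1.5-fold limits dashed and the median of all genes of the class as a bar. Of the 734 points, 35 lie above the upper line and 12 below the lower one, and none of the Pvalb, astrocyte and endothelial points lie outside.

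Kcnt1 was past the limit upward in 5 of 13 classes with enough UMIs. Its log2 ratio was 0.65 (0.48 to 0.81) in CA1-like (30.1 and 47.1 CPM (577 and 624 UMIs)), 0.85 (0.6 to 1.1) in fibroblast-like (122 and 219 CPM (178 and 526 UMIs)), 0.72 (0.36 to 1.09) in oligodendrocyte-like (6.18 and 10.2 CPM (116 and 143 UMIs)), 0.75 (0.23 to 1.27) in oligodendrocyte precursor-like (18.9 and 31.8 CPM (58 and 71 UMIs)) and 0.83 (0.27 to 1.39) in microglia-like cells (15 and 26.7 CPM (47 and 71 UMIs)). It was above 0 in 12 of 13 classes with enough UMIs, with a median of 0.52, and over all cells the level was 44.3 and 67.7 CPM. Both fibroblast-like clusters at a finer resolution had the difference, with 169 and 299.9 CPM in one and 53.3 and 81.4 CPM in the other. Of 45 members with enough UMIs in 10 or more classes, 3 were past the limit upward in 3 or more of them (Kcnt1, Kcnab3 and Kcnk9), beside 1.1% of 9012 genes, and 0 were past it downward in 3 or more, beside 0.71%.

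Kcnk9 (TASK-3, an acid-sensitive leak channel) was past the limit in Sst interneuron-like (38 and 59 CPM, log2 ratio 0.64 (0.27 to 1.01)), microglia-like (31.7 and 61.9 CPM, 0.97 (0.6 to 1.34)) and oligodendrocyte-like cells (17.7 and 27.1 CPM, 0.61 (0.4 to 0.83)). In Sst interneuron-like cells the 5 cells richest in Kcnk9 held 56 of 116 UMIs in the control library and 71 of 137 in the tomatidine library. Kcnab3 was past the limit in CA3-like (0.68 (0.21 to 1.16)), oligodendrocyte-like (0.91 (0.62 to 1.21)) and oligodendrocyte precursor-like cells (1.1 (0.59 to 1.63)), but not in Pvalb interneuron-like cells, where its level is highest (0.12 (−0.0077 to 0.25)). Unnamed neuron clusters with more cells in the tomatidine library also held these genes. In the cluster led by Pou4f2 and Barhl2 (205 and 684 cells), Kcnt1 stood at 106 and 132 CPM, Kcnk9 at 249 and 392 CPM, Kcnab3 at 152 and 124 CPM and Kcnc1 at 312 and 401 CPM. In the cluster led by Gata3 and Sox14 (177 and 517 cells) they stood at 94.7 and 115 CPM, 184 and 205 CPM, 124 and 151 CPM and 352 and 406 CPM. Whether RNA of those neurons took part in the ratios of other classes was not tested.

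Kcnj16 was higher with tomatidine in all 8 classes with enough UMIs and past the limit in 5, none of them the oligodendrocyte precursor-like or astrocyte-like class, where its level is highest. Its log2 ratio was 1.0 (0.45 to 1.55) in CA1-like (50 and 69 UMIs), 0.86 (0.5 to 1.21) in dentate granule-like (118 and 158 UMIs), 0.88 (0.34 to 1.42) in retrohippocampal or cortical neuron-like (48 and 79 UMIs), 0.69 (0.21 to 1.18) in microglia-like (64 and 88 UMIs) and 0.61 (0.23 to 0.99) in oligodendrocyte-like cells (111 and 127 UMIs). In astrocyte-like and oligodendrocyte precursor-like cells it was 0.15 (0.048 to 0.25) and 0.092 (−0.11 to 0.29). The astrocyte water channel Aqp4 moved the same way in some of these classes, with 7.68 and 16.3 CPM in retrohippocampal or cortical neuron-like and 89.6 and 153 CPM in microglia-like cells, and the summed astrocyte markers were 638 and 833 CPM in CA1-like and 3435 and 4185 CPM in microglia-like cells. The part of astrocyte RNA in the Kcnj16 ratios was not tested.

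**Figure D5:**
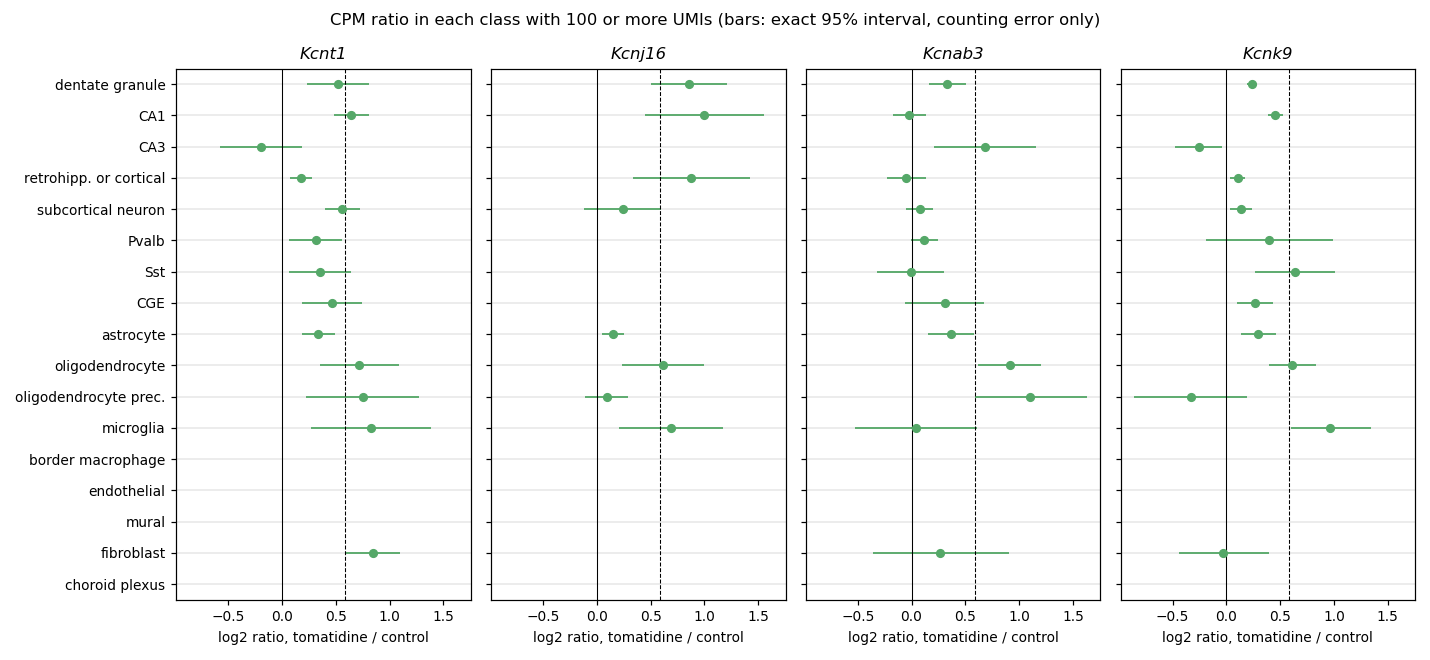
Log2 CPM ratio of tomatidine over control for the genes named in the panel titles, in each class with 100 or more UMIs (rows), with exact 95% intervals for counting error as bars and the 1.5-fold limit dashed. Kcnt1 lies above 0 in 12 of 13 classes and Kcnj16 in 8 of 8.

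Microglia-like cells had 5 of 45 members past the limit upward (background 1.94%) and 0 downward (0.782%). Besides Kcnj16, Kcnt1 and Kcnk9 these were Kcnc1 (38.7 and 63.4 CPM (121 and 169 UMIs), log2 ratio 0.71 (0.37 to 1.06)) and Kcnc4 (32.7 and 59.7 CPM (102 and 159 UMIs), 0.87 (0.5 to 1.24)), both Kv3 genes of neurons. At a finer resolution Kcnk9, Kcnc1 and Kcnc4 were past the limit in the smaller of 2 microglia-like clusters (320 and 298 cells), with 46.5 and 118 CPM, 59.5 and 119.6 CPM and 45.2 and 109.5 CPM. In the larger (543 and 466 cells) they stayed inside it, with 26.8 and 38 CPM, 32 and 39.6 CPM and 27.7 and 38.5 CPM. The members highest in microglia-like cells had ratios below 0 and inside the limit, −0.25 (−0.43 to −0.075) for Kcnk6, −0.3 (−0.54 to −0.056) for Kcnj2 and −0.18 (−0.53 to 0.17) for Kcnd1. Slc12a5, the chloride cotransporter of neurons, was 55.1 and 94.2 CPM in the same class, and the summed excitatory neuron markers were 2188 and 2171 CPM.

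Oligodendrocyte-like cells had 6 of 60 members past the limit upward (background 1.53%) and 0 downward (0.485%), each at a low level there. They were Kcnk9, Kcnj16, Kcnt1, Kcnab3, Kcnk10 (4 and 6.55 CPM (75 and 92 UMIs), log2 ratio 0.71 (0.26 to 1.17)) and Kcnk3 (TASK-1; 2.45 and 4.34 CPM (46 and 61 UMIs), 0.82 (0.25 to 1.41)). The members that are high in the class stayed inside the limit, with −0.13 (−0.16 to −0.098) for Kcna6, −0.2 (−0.25 to −0.16) for Kcna1, −0.05 (−0.093 to −0.0076) for Kcnj10 and −0.027 (−0.11 to 0.055) for Kcnk13. Oligodendrocyte precursor-like cells had 4 of 45 upward (background 1.33%) and 3 downward (2.18%). Upward were Kcnt1, Kcnab3, Kcnk3 (35.6 and 55.1 CPM (109 and 123 UMIs), 0.63 (0.25 to 1.02)) and Kcnip4 (23.5 and 36.7 CPM (72 and 82 UMIs), 0.64 (0.17 to 1.12)). Downward were Kcna4 (28.7 and 15.7 CPM (88 and 35 UMIs), −0.87 (−1.48 to −0.29)), Kcnj4 (48.6 and 29.1 CPM (149 and 65 UMIs), −0.74 (−1.18 to −0.31)) and Kcnq5 (31 and 20.6 CPM (95 and 46 UMIs), −0.59 (−1.13 to −0.067)), 3 genes whose highest class is neuronal. Kcnj4, a strong inward rectifier of neurons, had a ratio of 0.066 when cells were weighted equally.

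In fibroblast-like cells Kcnt1 and Kcnd3 (32.8 and 57.3 CPM (48 and 138 UMIs), log2 ratio 0.81 (0.32 to 1.31)) were past the limit upward (2 of 40, background 1.92%), and Kcnv1 (35.5 and 19.9 CPM (52 and 48 UMIs), −0.83 (−1.43 to −0.24)) and Kcnj3 (97.7 and 63.6 CPM (143 and 153 UMIs), −0.62 (−0.96 to −0.28)) downward (2 of 40, background 2.46%). Kcnj13 stayed inside it in fibroblast-like (0.4 (0.088 to 0.71)) and choroid plexus-like cells (0.38 (0.24 to 0.51)), although over all cells its level was 14.6 and 4.55 CPM, with 338 and 34 choroid plexus-like cells in the libraries. In choroid plexus-like cells 4 of 20 members were past the limit downward (background 10.3%) and 0 upward (3.77%). They were Kcnj3 (138 and 9 UMIs), Kcnj10 (135 and 10 UMIs), Kcna2 (111 and 9 UMIs) and Kcna6 (135 and 11 UMIs), none of them highest in that class, with log2 ratios of −1.28 (−2.44 to −0.32), −1.1 (−2.19 to −0.18), −0.97 (−2.14 to 0.0064) and −0.96 (−2.0 to −0.078). Those of Kcnj3 and Kcna2 turned positive with cells weighted equally, and that of Kcnj10 at a coarser resolution of the clustering (0.8, 0.11 and 0.98).

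In mural-like cells Kcnab1, a Kvβ subunit, was past the limit upward (1 of 4, background 6.39%; downward 0, background 5.34%) at 63 and 148 CPM (23 and 102 UMIs), log2 ratio 1.23 (0.57 to 1.95). Its 5 richest cells held 18 of 23 UMIs in the control library and 69 of 102 in the tomatidine library, and the ratio was −0.33 with cells weighted equally and −0.54 under the stricter of the study's cell limits (200 to 6000 genes and under 10% mitochondrial UMIs). Cells with more than 6000 genes, left out by those limits, held 6 of the 23 and 78 of the 102 UMIs. Abcc9 was lower with tomatidine in mural-like (627 and 361 CPM, −0.8 (−1.06 to −0.53)) and endothelial-like cells (581 and 379 CPM, −0.61 (−0.8 to −0.43)), beside −0.35 (−0.9 to 0.21) and −0.21 (−0.59 to 0.17) for Kcnj8. Acta2, a smooth muscle marker, was 1132 and 3156 CPM in the mural-like class, while at a finer clustering the mural-like cells led by Pln, Acta2 and Cnn1 numbered 23 and 53 and the others 20 and 42. The part of smooth muscle RNA in these ratios was not tested. Border macrophage-like cells had 2 of 9 members past the limit upward (background 4.77%) and 0 downward (4.52%), beside summed excitatory neuron markers of 1674 and 2251 CPM.

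Among excitatory neurons, CA1-like cells had 4 of 59 members past the limit upward, beside a background of 4.02%, so their share was near that of all genes. Besides Kcnt1 and Kcnj16 these were Kcnd3 (20.2 and 31.7 CPM (387 and 420 UMIs), log2 ratio 0.65 (0.45 to 0.85)) and Kcnip1 (3.39 and 5.51 CPM (65 and 73 UMIs), 0.7 (0.2 to 1.2)). Kcnd3 was above 0 in 13 of 13 classes, with a median of 0.18, and was 1 of 2 members higher in every class tested, beside 1.71% of 9012 genes. Kcnd2, the main A-type gene of these cells, had a ratio of 0.17 (0.11 to 0.23). In retrohippocampal or cortical neuron-like cells (3 of 63, background 1.86%), Kcnk13 (5.23 and 7.84 CPM (81 and 109 UMIs), 0.59 (0.16 to 1.02)) and Kcnc2 (23.9 and 36.8 CPM (370 and 511 UMIs), 0.62 (0.43 to 0.82)) joined Kcnj16. The 5 cells richest in Kcnc2 held 55 of 370 UMIs in the control library and 174 of 511 in the tomatidine library, and under the stricter cell limits the ratios of Kcnk13 and Kcnc2 were −0.68 and −0.44. Those limits leave out cells with more than 6000 genes, which held 69 of 81 and 100 of 109 UMIs of Kcnk13. For Kcnc2 they held 309 of 370 and 457 of 511 UMIs. Dentate granule-like (1 of 65, Kcnj16, background 0.855%) and CA3-like cells (1 of 52, Kcnab3, background 1.93%) had no other. Downward there were none in these classes, beside backgrounds of 0.231% in CA1-like, 0.567% in retrohippocampal or cortical neuron-like, 0.21% in dentate granule-like and 0.463% in CA3-like cells.

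In subcortical neuron-like cells, Kcnip1 had the largest ratio upward among the members of any neuron class, at 15.9 and 41.8 CPM (223 and 364 UMIs) and a log2 ratio of 1.4 (1.15 to 1.64) (1 of 62, background 2.57%). Its 5 richest cells held 81 of 223 UMIs in the control library and 172 of 364 in the tomatidine library. At a finer resolution the difference lay in one of its clusters (14.8 and 43.8 CPM) more than in the other (22.1 and 26.2 CPM), and under the stricter cell limits the ratio was −0.45. The interneuron gene Gad1 was 16.2 and 29.5 CPM in the class and the summed CGE markers were 834 and 1217 CPM. In CGE interneuron-like cells themselves Kcnip1 was 313 and 244 CPM. The part of interneuron RNA in the Kcnip1 ratio was not tested. Downward were Kcng2 (9.9 and 5.4 CPM (139 and 47 UMIs), −0.87 (−1.38 to −0.39)), Kcng3 (10.6 and 7.01 CPM (149 and 61 UMIs), −0.6 (−1.05 to −0.16)) and Kcnj5 (6.05 and 4.02 CPM (85 and 35 UMIs), −0.59 (−1.2 to −0.0062)), which is 3 of 62 beside a background of 1.05%. The ratio of Kcnj5 was 0.054 with cells weighted equally and 0.11 under the stricter cell limits.

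Among interneurons the classes differed in how many members were past the limit. Pvalb interneuron-like cells had 0 of 45 members past the limit in either direction (background 1.15% higher and 0.693% lower), and their Kv3 sum was 3231 and 3442 CPM, a log2 ratio of 0.091 (0.051 to 0.13). CGE interneuron-like cells had 1 of 50 upward (background 2.18%) and 0 downward (1.71%), the one being Kcnf1 (50.1 and 76 CPM (157 and 220 UMIs), 0.6 (0.3 to 0.91)), whose ratio was −0.024 under the stricter cell limits. Sst interneuron-like cells, with 97 and 89 cells the smallest neuron class, had 4 of 44 upward (background 1.76%) and 0 downward (0.963%), namely Kcnk9, Kcnh7 (52 and 63 UMIs, 0.67 (0.12 to 1.23)), Kcnip4 (73 and 89 UMIs, 0.68 (0.22 to 1.15)) and Kcnj4 (84 and 103 UMIs, 0.69 (0.26 to 1.12)). The 5 richest cells held 40 of 73 UMIs in the control library and 60 of 89 in the tomatidine library for Kcnip4, and under the stricter cell limits its ratio was −1.33. Those limits leave out cells with more than 6000 genes, which held 57 of the 73 and 80 of the 89 UMIs. Astrocyte-like cells had 0 of 65 members past the limit (background 0.762% higher and 1.1% lower), and endothelial-like cells 0 of 6 (2.15% and 2.22%).

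Summed by family, few groups of genes were past 1.5-fold. Kcnt was higher in fibroblast-like cells (182 and 279.6 CPM, log2 ratio 0.62 (0.41 to 0.83)), Kcnab in mural-like cells (178 and 302 CPM, 0.76 (0.35 to 1.18)), and Kcnd (0.89 (0.31 to 1.49)), Kcnh (0.66 (0.16 to 1.18)) and Kcnq (0.59 (0.24 to 0.94)) in border macrophage-like cells. Kcng was lower in fibroblast-like (81.3 and 50.3 CPM, −0.69 (−1.07 to −0.32)) and oligodendrocyte precursor-like cells (42.1 and 22.4 CPM, −0.91 (−1.41 to −0.43)), and Kcna in choroid plexus-like cells (172 and 111 CPM, −0.63 (−1.1 to −0.2)). Each of these sums rests on under 1000 UMIs. The sums of Kcnab in mural-like cells and Kcng in oligodendrocyte precursor-like cells changed sign under another weighting or cell filter.

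Of 26 genes that work with potassium channels (Kv4, Kv2, BK and ATP-sensitive partners, pacemaker channels, axonal scaffolds, the sodium pump, chloride cotransporters and Aqp4), 314 combinations with a class had 100 or more UMIs, of which 15 were at least 1.5-fold higher and 6 lower with tomatidine, beside 2.07% and 1.53% of all gene and class combinations. Slc12a2, the NKCC1 cotransporter, was lower in astrocyte-like cells (108 and 69.6 CPM, log2 ratio −0.63 (−0.75 to −0.51)). In mural-like cells the sodium pump gene Atp1b1 was higher (0.68 (0.41 to 0.96)) and Atp1b3 lower (−0.59 (−0.94 to −0.23)), and Atp1b2 was higher in border macrophage-like cells (0.71 (0.44 to 0.98)). The Kv4 partner Dpp10 in CA1-like (0.67 (0.33 to 1.01)) and the Kv1 modulator Lgi1 in Sst interneuron-like cells (0.7 (0.38 to 1.02)) were also past the limit upward.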

How the data were processed

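Single-cell RNA-seq of hippocampus was measured in 1 control and 1 tomatidine library, each of 4 pooled mice. The authors deposited counts: the whole number of UMIs of each probed gene in each cell, without normalization, from reads aligned to mm10. The matrix header gives Cell Ranger 7.1.0 and the submitters' processing notes 8.0.0.

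The cell limits were those of the study's methods: 500 UMIs or more, more than 250 genes, a complexity (log10 genes over log10 UMIs) above 0.8, and mitochondrial UMIs below 20%. Scrublet's own threshold (scanpy 1.11.5) called 0 and 2 cells and had not worked, so the 2% with the highest scores were left out. This left 15114 control and 14502 tomatidine cells, with median depths of 7076 and 7408 UMIs. They were integrated (RPCA) and clustered in Seurat 5.3.0 (R 4.3.3) without 123 genes (the members, their partners and sex-linked genes). Clusters were named from marker lists by a rule set after the clusters were seen. Members and lists were chosen with earlier results of these data known.

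UMIs were summed by library and class, with exact Poisson intervals for levels and exact conditional binomial intervals for ratios. PCR copies are removed by UMIs, but sampling of cells and mice is not in the intervals. Named genes were, for each class, up to 3 members with 100 or more UMIs and the largest fold over the next class, every member past 1.5-fold in a class (at most 5 on each side), the most counted member of each family, members with a known cell type role, and 26 partner genes. Genes named with values beyond this rule, such as Kcnj4, Kcnk5, Kcnn4 and Kcnq1, were chosen after their values were seen. Some genes that the rule names, and a sequence window, are not reported here. Coding sequences came from GENCODE vM21; amino acid stretches, planned at first, are not given. Alternatives covered cell filter, doublets, integration, resolution, scaling (TMM from edgeR 4.0.16, used for factors alone), UMI minimum, fold, and the mix of clusters. The calculations were tested on simulated data. The scripts ran in Python 3.11.15 (pandas 2.3.3, scipy 1.17.1, numpy 2.4.6, matplotlib 3.10.9).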

Additional observations from a re-analysis of the deposited data

How the results depend on the processing

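The number of members (80 to 91) and of members with the same highest class in both libraries (62 to 69) stayed within 1.5 times the reported 82 and 70 under every alternative run, and so did the 35 higher and 12 lower member and class combinations when cell filter, doublets, integration, resolution, TMM scaling or the mix of clusters (chosen after seeing the data) was altered: 25 to 34 and 10 to 14. With cells weighted equally there were 42 higher (5.72%) and 21 lower (2.86%) of 734, beside 4.45% and 3.33% of all combinations, so the members' share was near that of all genes. The counts followed the UMI minimum: 103 and 75 of 1061 at 20 UMIs (background 5.88% and 4.37%), 52 and 28 of 864 at 50 (3.52% and 2.6%), and 16 and 3 of 591 at 200 (1.06% and 0.802%). At 1.2-fold there were 156 and 69 of 734 (13.8% and 8.49%) and at 2-fold 3 and 2 (0.229% and 0.304%). Over 8 alternatives, 351 of 364 values of the 47 combinations past 1.5-fold kept their direction, 330 stayed inside the counting interval, and 36 combinations had no reversal.

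Under the stricter cell limits (200 to 6000 genes, under 10% mitochondrial UMIs), the log2 ratio was −0.024 for Kcnf1 in CGE, −1.33 for Kcnip4 in Sst, −0.54 for Kcnab1 in mural, −0.68 for Kcnk13 and −0.44 for Kcnc2 in retrohippocampal or cortical, 0.11 for Kcnj5 and −0.45 for Kcnip1 in subcortical neuron-like cells, and 0.14 for the Kcng sum in oligodendrocyte precursors. With cells weighted equally it was 0.80 for Kcnj3 and 0.11 for Kcna2 in choroid plexus, −0.33 for Kcnab1 and −0.069 for the Kcnab sum in mural, 0.066 for Kcnj4 in oligodendrocyte precursors and 0.054 for Kcnj5 in subcortical neuron-like cells. At resolution 0.3, Kcnj10 in choroid plexus was at 0.98. The stricter limits leave out cells with more than 6000 genes. These cells held 115 of 157 and 162 of 220 UMIs of Kcnf1 in CGE, and 57 of 73 and 80 of 89 of Kcnip4 in Sst. In mural they held 6 of 23 and 78 of 102 of Kcnab1. In retrohippocampal or cortical they held 69 of 81 and 100 of 109 of Kcnk13, and 309 of 370 and 457 of 511 of Kcnc2. In subcortical neuron-like cells they held 74 of 85 and 27 of 35 of Kcnj5, and 154 of 223 and 330 of 364 of Kcnip1. The cause of the reversals was not tested. No paired analysis was possible because each group is 1 library, and for the same reason no replicate could be left out.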
